A study of Mus musculus with 16 samples.

Results

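The small leucine-rich proteoglycan genes Lum, Dcn, Omd, Ogn, Bgn, Fmod, Prelp and Aspn were read on 16 Illumina bead arrays of mouse embryonic fibroblasts. The members are the 12 probes that the array's annotation assigns to these 8 gene symbols, of 16593 genes with a symbol on the array, and all 12 probes passed the filter on dim probes. The fibroblasts were Hmgb1-/- (KO), with Hmgb1 the gene of an abundant chromatin protein that bends DNA, or wild-type (Wt). Each genotype was measured in cycling cells (3 arrays), in cells synchronized in G1 (3 arrays) and in cells synchronized in S phase (2 arrays), with no agent of synchronization, strain or embryonic age in the labels used here. Each KO and Wt pair came from embryos of a heterozygous mother and a heterozygous father, with a different mother for each of the 3 pairs, and the cells had been cultured for at most 3 passages. The replicates of a group are thus separate isolates of embryonic fibroblasts. The labels name no clone and do not say which lines recur across phases.

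Small leucine-rich proteoglycans are secreted proteins built on a curved core of leucine-rich repeats, and most carry chondroitin, dermatan or keratan sulfate chains. They bind fibrillar collagens and set the width and spacing of collagen fibrils, and several bind growth factors such as TGF-beta or cell surface receptors. Fibroblasts of skin, tendon and other connective tissue are a main source of them. Decorin (Dcn), biglycan (Bgn) and asporin (Aspn) form the first class of the family, lumican (Lum), fibromodulin (Fmod), prolargin (Prelp) and osteomodulin (Omd) the second, and osteoglycin (Ogn) belongs to the third.

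The 16 arrays lay on 2 slides. All 6 cycling arrays were on slide 1 together with G1 pair 3, and all 4 S arrays were on slide 2 together with G1 pairs 1 and 2, so that S and cycling cells shared no slide. Mean intensity per array was 394 to 776, and 38.8% to 48.1% of 25697 probes were detected (detection p under 0.01). The Hmgb1 probe lay at background on both genotypes (log2 4.48 to 5.75, detected on 1 Wt array in G1), so the arrays do not check the genotype. The 8 fibroblast markers on the array were all detected on 16 of 16 arrays. Endothelial Cdh5, Kdr, Pecam1 and Tie1, bone-specific Bglap, Ibsp and Sp7, cartilage Matn1 and tendon Tnmd were detected on no array, whereas 3 of 5 macrophage and leukocyte markers, 5 of 6 smooth muscle markers and cartilage Sox9 and Col2a1 were detected on all 16. Tendon Scx and Mkx were detected on 15 of 16 arrays, endothelial Emcn on 13, and epithelial Krt8, Cdh1, Krt14, Krt18 and Krt5 on 8, 6, 5, 3 and 0. Replicate 1 of KO cells in G1 and replicate 3 of cycling Wt cells stood apart. Their correlations to arrays of their own group went down to 0.939 and 0.966. Other arrays of these groups have the same lowest values, since a correlation counts for both of its arrays. These values alone thus do not single out the 2 arrays. Some of the results that rest on them are given with and without them. Xist, the RNA of the inactive X chromosome, was detected in cycling pair 3 and in G1 pairs 2 and 3. It was detected on both arrays of each of these pairs and on no other array. Pair number 2 was therefore not the same fibroblast line in all phases. The 2 arrays that stood apart each differed in Xist from the rest of their group. The sex of the embryos was also unevenly spread over the phases, and its part in the phase differences was not tested.

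Values are log2 normalized intensities unless a fold is named, differences carry the standard error (SE) from limma, and a probe is called changed at a Benjamini-Hochberg adjusted p under 0.05 over the 12078 probes tested. Lum and Omd were near the limit of detection in cycling cells, where the lowest log2 value of a detected probe was 5.38 to 5.93, depending on the array. At the other end, Bgn gave 62.3% to 82.7% of the intensity of the brightest probe of its array and lay between the 99.68th and the 99.93rd percentile, near the top of the array's scale. In these bulk samples, fewer cells of a type and less RNA per cell cannot be told apart.

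Several members are neighbours on their chromosome. In the RefSeq gene order Aspn, Omd and Ogn follow each other on chromosome 13 next to Ecm2, Dcn and Lum adjoin on chromosome 10 next to Kera and Epyc, Prelp and Fmod adjoin on chromosome 1 next to Optc, and Bgn stands apart from the other members on chromosome X. The start regions of the chromosome 13 neighbours, which were called higher in G1 than in cycling cells, are shown here beside that of Bgn, which was not. They run from 250 bases before to 50 bases after the annotated start (RefSeq, GRCm38.p6, plus strand), at chr13:49544193-49544492 for Aspn, chr13:49582212-49582511 for Omd, chr13:49607765-49608064 for Ogn and chrX:73483351-73483650 for Bgn. Capitals mark matches, on either strand, to TATAAA (the letters of a TATA box) in Aspn and Ogn and to GGGCGG (the letters of a GC box) in Bgn.
Aspn: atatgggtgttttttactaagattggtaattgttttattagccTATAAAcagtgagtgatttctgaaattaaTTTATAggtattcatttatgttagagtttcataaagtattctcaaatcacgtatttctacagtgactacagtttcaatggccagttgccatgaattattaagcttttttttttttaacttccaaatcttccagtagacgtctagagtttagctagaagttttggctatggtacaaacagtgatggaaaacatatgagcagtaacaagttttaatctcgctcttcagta
Omd: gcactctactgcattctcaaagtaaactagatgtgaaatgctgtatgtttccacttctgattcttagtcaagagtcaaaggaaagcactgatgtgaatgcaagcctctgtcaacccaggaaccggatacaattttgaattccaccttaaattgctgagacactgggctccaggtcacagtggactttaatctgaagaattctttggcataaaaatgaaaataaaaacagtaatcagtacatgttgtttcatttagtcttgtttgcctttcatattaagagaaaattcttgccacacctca
Ogn: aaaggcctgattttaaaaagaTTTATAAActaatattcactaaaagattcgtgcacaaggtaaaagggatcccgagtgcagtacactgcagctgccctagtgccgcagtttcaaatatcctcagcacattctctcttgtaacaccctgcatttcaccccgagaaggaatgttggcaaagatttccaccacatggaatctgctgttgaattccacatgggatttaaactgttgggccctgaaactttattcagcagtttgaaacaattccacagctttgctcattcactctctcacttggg
Bgn: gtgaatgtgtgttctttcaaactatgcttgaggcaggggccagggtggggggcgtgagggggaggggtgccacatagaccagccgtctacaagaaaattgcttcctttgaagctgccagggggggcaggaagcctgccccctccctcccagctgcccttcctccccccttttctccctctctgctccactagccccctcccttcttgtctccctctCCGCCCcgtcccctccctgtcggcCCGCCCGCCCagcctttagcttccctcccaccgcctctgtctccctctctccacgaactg

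The chromosome 13 windows were poor in G and C, with 31.0% in Aspn, 37.7% in Omd and 42.3% in Ogn, against a median of 52.7% over 32851 promoters of the same length. Bgn had 63.7%. Prelp and Fmod, whose windows are not shown, had 55.3% and 51.0%, and both were also called higher in G1, Fmod by probe ILMN_2999762 alone. GGGCGG matched 3 times in Bgn, at -34 to -29, -10 to -5 and -6 to -1 from the start, and the last 2 matches overlap. It matched in none of the other 5 windows read and in 35.7% of all promoters. TATAAA matched in 2 places in Aspn (-207 to -202 and -178 to -173) and in 2 overlapping places in Ogn (-229 to -224 and -227 to -222), and in 13.6% of all promoters. The AP-1 letters TGANTCA (7.81% of all promoters) and the forkhead letters GTAAACA (3.65%) were in none of the 6 windows. The windows of Lum and Dcn were not used here.

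**Figure D1:**
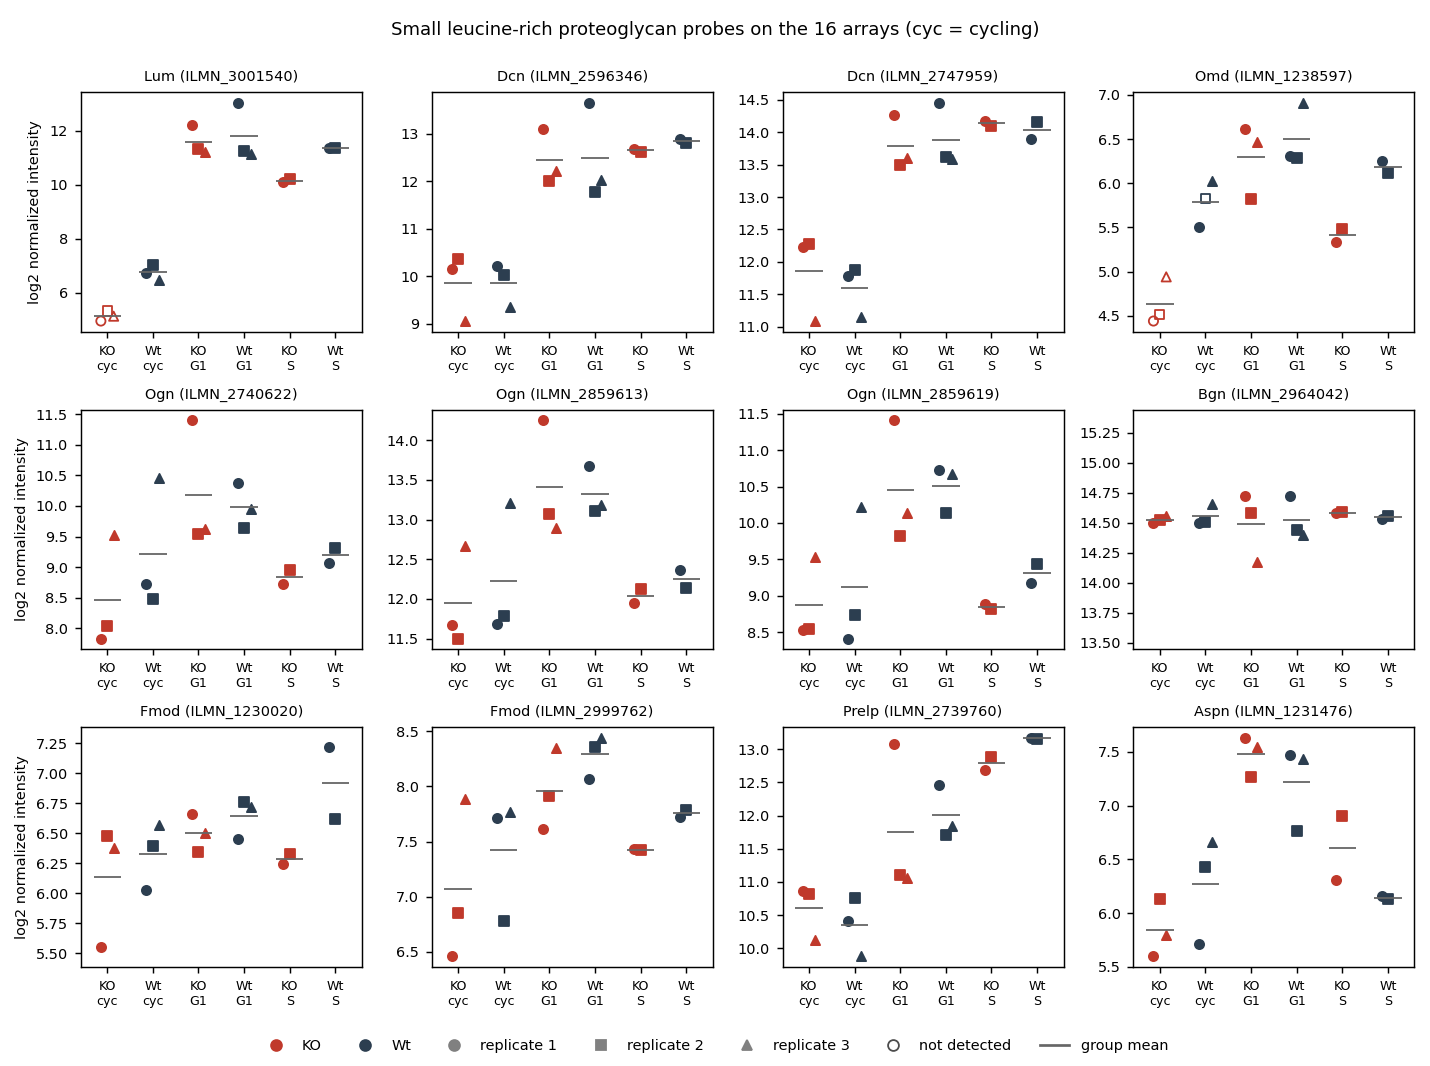
Log2 normalized intensity of the 12 member probes on the 16 arrays (vertical axis, scaled to each probe), with KO left of Wt in cycling (cyc), G1 and S cells. Points are arrays, shapes are replicate numbers, open points were not detected and bars are group means: Lum is at 4.95 to 7.02 in cycling cells and at 10.09 to 13.04 in G1 and S cells, while Bgn stays between 14.17 and 14.72.

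G1-synchronized fibroblasts had higher levels of 7 of the 8 genes than cycling fibroblasts, with Bgn the exception. Lum, which regulates fibril assembly in cornea and skin, had the largest difference of the members. It was 54.4-fold over both genotypes, with Lum detected on no cycling KO array. In Wt cells, where every cycling and G1 array detected Lum, the group means differed by 5.07 on the log2 scale. Dcn had the next largest difference, 4.29-fold and 6.08-fold over both genotypes by its 2 probes. Of the 12 probes, 10 were called higher and 0 lower, where 9.72% of all tested probes were called higher and 10.1% lower. The median difference of the members was 1.29, against -0.05 over all probes tested.

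Dcn binds collagen and TGF-beta and is the family member best known from dermal fibroblasts. By probe ILMN_2747959 it had values of 14.27, 13.49 and 13.60 in KO cells and 14.45, 13.62 and 13.58 in Wt cells in G1, against 12.23, 12.28 and 11.09 in cycling KO cells and 11.79, 11.87 and 11.15 in cycling Wt cells. The lowest G1 array lay above the highest cycling array. The difference was 2.10 ± 0.24 (adjusted p = 7.04e-05). In G1 and S cells this probe came near the level of Bgn and the top of the array's scale. By probe ILMN_2596346 the G1 arrays lay at 12.01 to 13.10 in KO cells and 11.78 to 13.65 in Wt cells, and the cycling arrays at 9.06 to 10.36 in KO cells and 9.36 to 10.21 in Wt cells. Its difference was 2.60 ± 0.33 (adjusted p = 1.33e-04), again with no overlap.

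Aspn, whose protein binds collagen and TGF-beta and carries a run of aspartate residues, had values of 7.63, 7.27 and 7.55 in KO cells and 7.47, 6.76 and 7.43 in Wt cells in G1. In cycling cells it had 5.60, 6.13 and 5.80 in KO and 5.71, 6.43 and 6.66 in Wt. The lowest G1 array (6.76) lay just above the highest cycling array (6.66), and the difference was 1.30 ± 0.20, or 2.46-fold (adjusted p = 4.67e-04). Bgn, a relative of Dcn that can also act as a signal to Toll-like receptors when released from the matrix, averaged 14.49 ± 0.29 in KO and 14.52 ± 0.17 in Wt cells in G1, and 14.53 ± 0.03 in KO and 14.56 ± 0.09 in Wt cycling cells (SD, n = 3 each). The Bgn groups overlapped, and the difference of -0.04 ± 0.12 (95% interval -0.30 to 0.22, adjusted p = 0.871) was measured near the top of the array's scale.

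Lum had values of 12.22, 11.34 and 11.22 in KO cells and 13.04, 11.27 and 11.16 in Wt cells in G1. In cycling cells it had 4.95, 5.32 and 5.13 in KO, detected on 0 of 3 arrays, and 6.74, 7.02 and 6.49 in Wt, detected on 3 of 3. The groups were separated by more than 4 log2 units at their nearest arrays, and the difference over both genotypes was 5.77 ± 0.29 (adjusted p = 3.53e-08). In KO cells the level in G1 was at least 69.3-fold that in cycling cells, with the cycling arrays set at the lowest level of a detected probe. This bound uses the mean of the KO arrays in G1, the highest of which (12.22) was replicate 1, which stood apart. In Wt cells the group means differed by 5.07.

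Prelp, which binds heparan sulfate and collagen, had 13.08, 11.11 and 11.06 in KO cells and 12.46, 11.71 and 11.84 in Wt cells in G1, against 10.86, 10.81 and 10.13 in cycling KO cells and 10.41, 10.75 and 9.88 in cycling Wt cells. Replicate 1 of KO cells was the highest of the G1 arrays, and the remaining G1 arrays also lay above all cycling arrays. The difference was 1.41 ± 0.32 (2.65-fold, adjusted p = 0.00669), and 0.96 ± 0.18 (adjusted p = 0.00225) without the 2 arrays that stood apart.

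Omd, which binds mineral and is best known from bone, lay much closer to background. It had 6.61, 5.82 and 6.47 in KO cells and 6.31, 6.29 and 6.91 in Wt cells in G1, against 4.44, 4.51 and 4.94 in cycling KO cells and 5.50, 5.83 and 6.02 in cycling Wt cells, and was detected on 3 of 3, 3 of 3, 0 of 3 and 2 of 3 arrays of these groups. The KO groups did not overlap, whereas 1 KO array in G1 lay within the range of the cycling Wt arrays. The difference was 1.20 ± 0.18 (adjusted p = 3.95e-04), and in KO cells the level in G1 was at least 1.77-fold that in cycling cells. Omd passed the filter on dim probes only through G1 and S cells, so this call is not independent of that filter.

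The 2 probes of Fmod, a keratan sulfate proteoglycan of tendon and cartilage, did not give the same call. ILMN_2999762 had 7.61, 7.91 and 8.35 in KO cells and 8.07, 8.36 and 8.44 in Wt cells in G1, against 6.46, 6.85 and 7.89 in cycling KO cells and 7.71, 6.78 and 7.77 in cycling Wt cells, a difference of 0.88 ± 0.24 (adjusted p = 0.0212). ILMN_1230020 lay at 6.34 to 6.66 in KO and 6.45 to 6.76 in Wt cells in G1, and at 5.55 to 6.48 in KO and 6.03 to 6.57 in Wt cycling cells, a difference of 0.34 ± 0.18 (adjusted p = 0.21). Both probes had overlapping groups.

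Ogn, found in bone, cornea and vessel walls, was called higher in G1 by each of its 3 probes. ILMN_2859613 had 14.25, 13.07 and 12.90 in KO cells and 13.68, 13.11 and 13.19 in Wt cells in G1, against 11.67, 11.50 and 12.67 in cycling KO cells and 11.69, 11.79 and 13.21 in cycling Wt cells. Pair 3 was the highest of the cycling pairs in both genotypes, and its Wt array reached the G1 range. The difference was 1.28 ± 0.31 by this probe (adjusted p = 0.0104), 1.49 ± 0.33 by ILMN_2859619 (adjusted p = 0.0064) and 1.24 ± 0.41 by ILMN_2740622 (adjusted p = 0.0475).

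**Figure D2:**
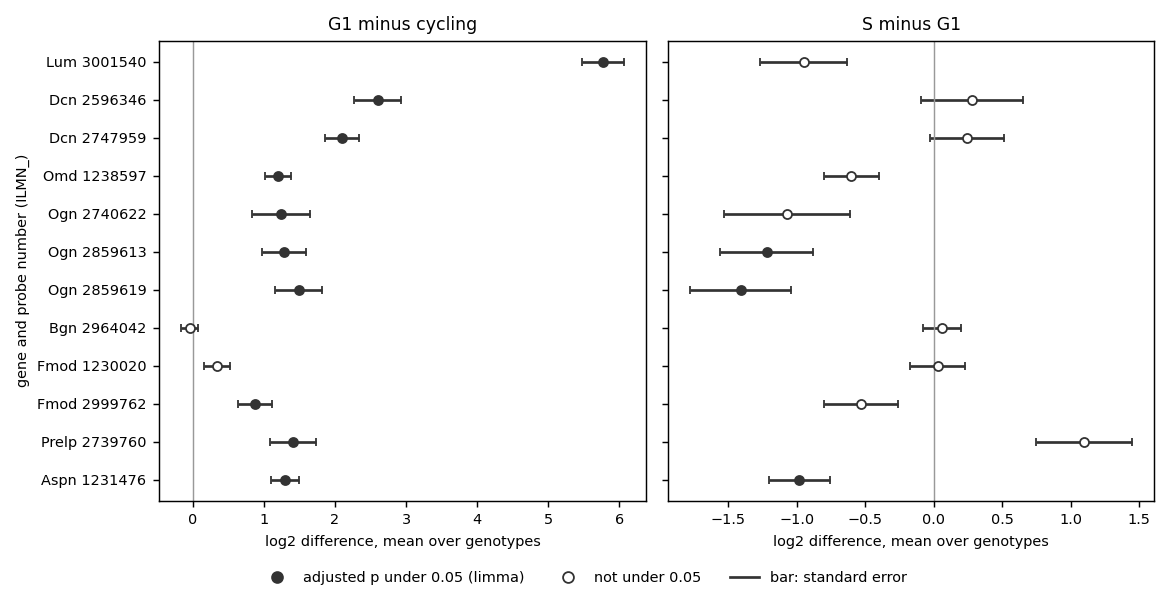
Log2 differences of the 12 member probes, as the mean over genotypes, for G1 minus cycling cells (left panel) and S minus G1 cells (right panel), with standard errors as bars and filled points at an adjusted p under 0.05. In the left panel 10 probes are filled and lie right of 0, with Lum at 5.77, and in the right panel 3 probes are filled and lie left of 0.

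Of the G1 arrays, pairs 1 and 2 lay on another slide than the cycling arrays. With slide as a block, which rests on the G1 pair hybridized beside the cycling arrays, 5 probes were called: Lum (5.25 ± 0.37), both of Dcn (2.26 ± 0.46 and 1.86 ± 0.35), Omd (1.48 ± 0.23) and Aspn (1.44 ± 0.28), with adjusted p from 8.17e-06 to 0.0121. The same 5 were called on slide 1 alone. Prelp (0.98 ± 0.43, adjusted p = 0.21), Fmod ILMN_2999762 (1.15 ± 0.34, adjusted p = 0.0671) and the 3 Ogn probes (0.94 to 1.42, adjusted p = 0.11 to 0.412) were not called with that block. Without the arrays numbered 1, 6 probes were called, with Lum at 5.26 and the Ogn differences at 0.56 to 0.94, and without the arrays numbered 2, 4 probes were called, those of Lum, Dcn and Aspn. Over 28 alternatives, Prelp was called in 25, Fmod ILMN_2999762 in 21 and Ogn ILMN_2740622 in 9. Markers of other cell types also differed between G1 and cycling cells. Both tested epithelial genes were called higher in G1. Krt14 differed by 1.29 ± 0.17 (detected on 3 of 6 arrays in G1 and 0 of 6 in cycling cells). It passed the filter on dim probes only through Wt cells in G1 and S. Krt8 differed by 0.66 ± 0.17 (detected on 5 of 6 and 1 of 6). Cartilage Sox9 was also called higher (1.36 ± 0.20), with Col2a1 not called (-0.36 and -0.08 by its 2 probes). Of 5 tested smooth muscle and pericyte genes, Cspg4 was called higher (1.04 ± 0.27) and Myh11 (-1.15 ± 0.21), Tagln (-1.04 ± 0.21) and Acta2 (-0.99 ± 0.23, by 1 of its 4 probes) lower. The summed level of the macrophage and leukocyte markers was 5350 to 18200 in KO and 4850 to 30400 in Wt cells in G1, and 3640 to 9880 in KO and 6080 to 7040 in Wt cycling cells (linear normalized intensity, 5 genes), and the part of these markers in the differences was not tested.

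Set against G1, the S-synchronized cells gave a split picture within the family. Ogn and Aspn were lower in S, Lum and Omd were lower by values that missed the threshold, Prelp was higher by a value that missed it, and Dcn, Bgn and Fmod were not called. Of the 12 probes, 3 were called lower and 0 higher, where 5.66% of all tested probes were called lower and 5.72% higher. The median difference of the members was -0.57, against 0.04 over all probes.

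Ogn probe ILMN_2859613 had 11.95 and 12.12 in KO cells and 12.36 and 12.14 in Wt cells in S, all below the lowest G1 array (12.90), with a difference of -1.22 ± 0.34 (2.33-fold lower, adjusted p = 0.037). ILMN_2859619 had 8.88 and 8.82 in KO cells and 9.18 and 9.43 in Wt cells in S, against 11.41, 9.82 and 10.14 in KO cells and 10.73, 10.14 and 10.67 in Wt cells in G1 (-1.41 ± 0.37, adjusted p = 0.0285). The third Ogn probe, ILMN_2740622, pointed the same way without being called (-1.07 ± 0.46, adjusted p = 0.153). All 3 probes placed Ogn in S cells near the cycling level: the group means in S less those in cycling cells were 0.37, 0.09 and -0.02 in KO and -0.03, 0.02 and 0.19 in Wt cells.

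Aspn had 6.31 and 6.90 in KO cells and 6.16 and 6.13 in Wt cells in S. The Wt arrays and 1 KO array lay below the G1 range, which began at 6.76, and the other KO array overlapped it. The difference was -0.98 ± 0.22 (1.97-fold lower, adjusted p = 0.0131). Lum had 10.09 and 10.21 in KO cells and 11.38 and 11.35 in Wt cells in S, so that the KO arrays lay below all G1 arrays and the Wt arrays within their range (-0.95 ± 0.32, adjusted p = 0.0745). Omd had 5.34 and 5.48 in KO cells and 6.25 and 6.12 in Wt cells in S, and the difference was -0.60 ± 0.20 (adjusted p = 0.0629).

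Prelp went the other way, with 12.68 and 12.89 in KO cells and 13.17 and 13.16 in Wt cells in S. Only replicate 1 of KO cells in G1 (13.08) reached those values, and the difference was 1.10 ± 0.35 (adjusted p = 0.0606). Without the 2 arrays that stood apart it was 1.43 ± 0.19 (adjusted p = 3.98e-04), and 5 probes were then called, with Ogn (-1.01 and -1.17), Aspn (-0.94) and Omd (-0.53). Dcn had 14.17 and 14.10 in KO cells and 13.90 and 14.15 in Wt cells in S by ILMN_2747959 (0.24 ± 0.27, adjusted p = 0.634) and 12.68 and 12.62 in KO cells and 12.88 and 12.81 in Wt cells by ILMN_2596346 (0.28 ± 0.37, adjusted p = 0.691).

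Bgn differed by 0.06 ± 0.14 and Fmod by 0.03 ± 0.20 and -0.53 ± 0.27 between S and G1 (adjusted p = 0.842, 0.949 and 0.231). The 3 calls between S and G1 rested on few arrays: without any 1 of the 4 S arrays, or without replicate 3 of Wt cells in G1, 0 or 1 probe was called. With a block of genotype and replicate number, 0 probes were called. Aspn was then at -0.90 (adjusted p = 0.0567) and the 2 Ogn probes at -1.09 (adjusted p = 0.119) and -1.21 (adjusted p = 0.0824). That block takes a replicate number as the same line in G1 and S cells. This did not hold for number 2, so the block cannot decide these calls. On slide 2 alone, 0 probes were called, with Aspn at -0.91 (adjusted p = 0.13) and the 2 Ogn probes at -1.38 (adjusted p = 0.0916) and -1.45 (adjusted p = 0.115). Of the smooth muscle and pericyte markers, Tagln (0.97 ± 0.24) and Acta2 (0.92 ± 0.26, by 1 of its 4 probes) were called higher in S than in G1 and Cspg4 lower (-1.20 ± 0.30), and of the fibroblast markers Thy1 was called higher (1.16 ± 0.19). The macrophage and leukocyte markers summed to 19000 to 22000 in KO and 22300 to 24100 in Wt cells in S, against 5350 to 18200 in KO and 4850 to 30400 in Wt cells in G1, and their part was not tested.

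Lum, Dcn and Prelp stayed far above their cycling levels in S cells. The group mean in S less that in cycling cells was 5.01 in KO and 4.62 in Wt cells for Lum, 2.79 and 2.27 in KO and 2.98 and 2.42 in Wt cells for the 2 Dcn probes, and 2.19 in KO and 2.82 in Wt cells for Prelp. In KO cells, Lum in S was at least 25.4-fold above its level in cycling cells. The S and cycling arrays shared no slide, so phase and slide cannot be told apart in this comparison, and it was not tested.

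Between genotypes, Omd was the member called, lower in KO, and Lum had a larger difference that missed the threshold, both genes of the second class. Averaged over the 3 phases, Omd was lower in KO than in Wt cells by 0.71 ± 0.15 on the log2 scale (-0.71, adjusted p = 0.0326, with no cycling KO array detected), the 1 member probe called, where 1.88% of all tested probes were called in either direction, 1.08% lower and 0.803% higher. Lum differed by -1.02 ± 0.25, with an adjusted p of 0.061. The fit took arrays of different phases as independent, although the same lines may recur across phases. Its SE and p thus measure the spread between arrays rather than between embryos. With the KO and Wt pairs as a replicate block, both were called, Lum with an adjusted p of 0.00416 and Omd with 0.0166. The median difference of the members was -0.20, against 0.00 over all probes, and 10 of 12 probes lay below 0, compared with 49.0% of all probes.

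**Figure D3:**
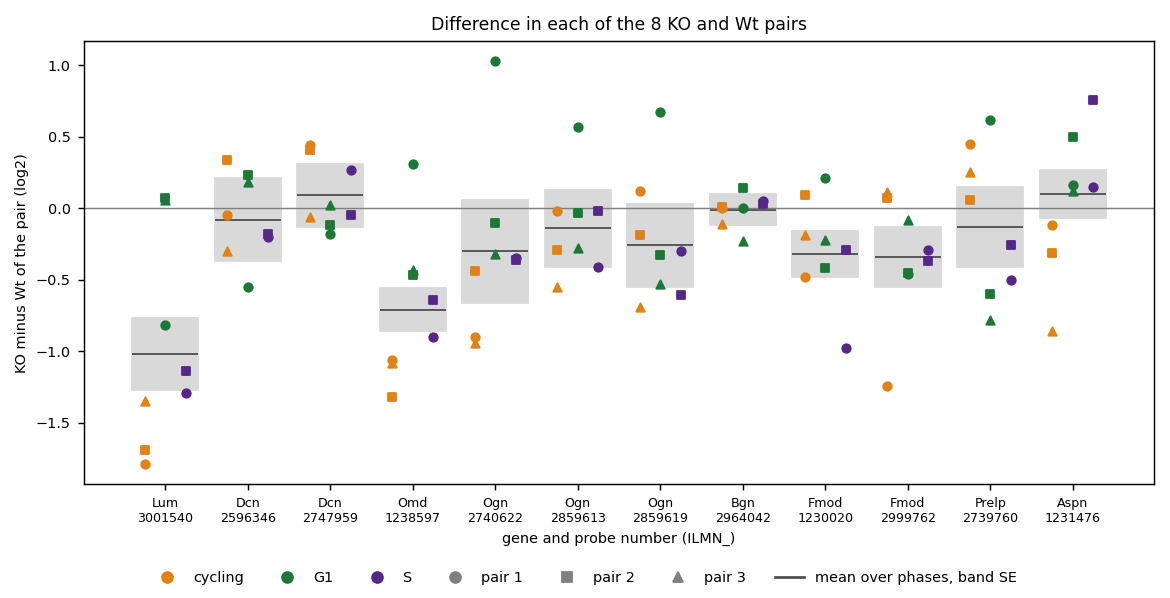
KO minus Wt difference (log2, vertical axis) of each member probe in the 8 pairs, with colours for phases and shapes for pair numbers, and the mean over phases (line) with its standard error (band). The cycling and S pairs of Lum lie between -1.79 and -1.14 and those of Omd between -1.32 and -0.64, whereas the G1 pairs of both genes lie nearer to 0 or above it.

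In cycling cells Lum was detected on none of the 3 KO arrays (4.95, 5.32 and 5.13) and on all 3 Wt arrays (6.74, 7.02 and 6.49), which makes it at least 2.41-fold lower in KO. Its pair differences were -1.79, -1.69 and -1.35 in the cycling pairs, -0.82, 0.07 and 0.06 in the G1 pairs, and -1.29 and -1.14 in the S pairs. The KO and Wt groups did not overlap in cycling and S cells and overlapped in G1. Within phases the difference was -1.61 ± 0.41 in cycling (adjusted p = 0.167), -0.23 ± 0.41 in G1 (adjusted p = 0.831) and -1.22 ± 0.50 in S cells (adjusted p = 0.812). With the replicate block the cycling difference was called (adjusted p = 0.0153) and that in S was not (adjusted p = 0.135).

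Omd had pair differences of -1.06, -1.32 and -1.08 in the cycling pairs, 0.31, -0.47 and -0.43 in the G1 pairs, and -0.90 and -0.64 in the S pairs, lower in KO in 7 of 8 pairs. The groups did not overlap in cycling and S cells and overlapped in G1. In cycling cells it was detected on 0 of 3 KO and 2 of 3 Wt arrays, which makes it at least 1.23-fold lower in KO. Within phases the difference was -1.15 ± 0.25 in cycling (adjusted p = 0.09, and 0.0427 with the replicate block), -0.20 ± 0.25 in G1 (adjusted p = 0.763) and -0.77 ± 0.30 in S cells (adjusted p = 0.794).

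The call of Omd over the phases was close to its threshold and to background. With an offset of 50 in place of 16 its difference was -0.40 (adjusted p = 0.0807), and with no background correction it was -0.28 (adjusted p = 0.109). Leaving out single arrays or all arrays of 1 replicate number gave Omd differences of -0.76 to -0.63, with an adjusted p from 0.0109 to 0.999, the highest without number 2. Its call was lost without number 1, 2 or 3, without replicate 1 or 2 of cycling KO cells, without replicate 2 of cycling Wt cells or replicate 3 of Wt cells in G1, and without any 1 of the 4 S arrays. Lum was called without replicate 1 of KO cells in G1 (-1.12, adjusted p = 0.0211), and also without replicate 1 (-0.82, adjusted p = 0.0181) or replicate 3 (-1.13, adjusted p = 0.0415) of Wt cells in G1. Leaving out both arrays that stood apart called Omd (-0.72, adjusted p = 0.013) and Lum (-1.17, adjusted p = 0.0195). Leaving out an array in this way kept its pair partner in the fit. For replicate 1 of KO cells in G1 that partner was the Wt array with Lum at 13.04. These fits thus broke pairs and cannot check the paired difference.

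No member probe was called within a single phase, where 0.315% of all probes were called in cycling, 0.29% in G1 and 0.232% in S cells. At an unadjusted p under 0.05, limma gave 2 of 12 member probes in cycling, 0 in G1 and 2 in S cells, those of Lum and Omd, where 10.4% of all probes passed in cycling, 9.09% in G1 and 5.31% in S cells. The difference between the genotype effects in G1 and in cycling cells was 1.38 ± 0.58 for Lum and 0.95 ± 0.35 for Omd (adjusted p = 0.509 for both), and called in 0 members, against 0.00828% of all probes, with 2 members and 9.44% of all probes at an unadjusted p under 0.05. Between S and G1 the genotype effects differed by -0.99 ± 0.65 for Lum and -0.57 ± 0.39 for Omd (adjusted p = 1 for both), with 0% of all probes called, and 0 members and 1.52% of all probes at an unadjusted p under 0.05. The smaller genotype difference of both genes in G1 is therefore not shown to differ from that in the other phases.

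The other members gave mean genotype differences between -0.34 and 0.10, with adjusted p of 0.439 or more. Fmod lay at -0.32 ± 0.16 (95% interval -0.67 to 0.02) and -0.34 ± 0.21, each lower in KO in 6 of 8 pairs. Ogn lay at -0.30 ± 0.36, -0.14 ± 0.27 and -0.26 ± 0.29, lower in KO in 7, 7 and 6 of 8 pairs. The G1 pair 1, which holds the KO array that stood apart, was an exception by all 3 probes, at 1.03, 0.57 and 0.67. By ILMN_2859619 the cycling pair 1 was also higher in KO, at 0.12.

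Dcn differed by -0.08 ± 0.29 and 0.09 ± 0.22 between KO and Wt, with 95% intervals of -0.70 to 0.55 and -0.37 to 0.56. Bgn differed by -0.01 ± 0.11 (95% interval -0.24 to 0.22), again near the top of the scale. Prelp differed by -0.13 ± 0.28 and Aspn by 0.10 ± 0.17, and both had pairs of opposite sign in different phases. Aspn was lower in KO in 3 of 3 cycling pairs (-0.12, -0.31 and -0.86) and higher in KO in the G1 pairs (0.16, 0.50 and 0.12) and in the S pairs (0.15 and 0.76). Prelp was higher in KO in 3 of 3 cycling pairs (0.45, 0.06 and 0.25), mixed in the G1 pairs (0.62, -0.60 and -0.78) and lower in KO in both S pairs (-0.50 and -0.26).

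Some markers of tendon, epithelial and fibroblast cells differed between genotypes beside these genes. Of 2 tested tendon genes, Scx, the transcription factor of tendon cells, was called lower in KO (-1.16 ± 0.22, adjusted p = 0.0148) and Mkx was not called (0.17 ± 0.26, adjusted p = 0.904). The 3 tendon markers summed to 197 to 224 in KO and 257 to 335 in Wt cycling cells, 174 to 238 in KO and 210 to 298 in Wt cells in G1, and 186 to 196 in KO and 273 to 310 in Wt cells in S, and Tnmd, which defines mature tendon cells, was detected on no array. Of 2 tested epithelial genes, Krt14, a keratin of basal epithelium, was called lower in KO (-1.01 ± 0.15, adjusted p = 0.0024). It was detected on 0 of 8 KO and 5 of 8 Wt arrays and passed the filter on dim probes only through Wt cells in G1 and S. Its call is thus not independent of that filter. Krt8 was not called (-0.27 ± 0.15, adjusted p = 0.534). The 5 epithelial markers summed to 147 to 185 in KO and 160 to 166 in Wt cycling cells, 182 to 225 in KO and 214 to 336 in Wt cells in G1, and 158 to 163 in KO and 207 to 211 in Wt cells in S. Of 8 fibroblast genes, Pdgfra, a receptor of fibroblasts and their progenitors, was called lower in KO (-1.32 ± 0.31, adjusted p = 0.0487) and the other 7 were not called (median over 9 probes -0.18). Between G1 and cycling cells, Pdgfra (2.19 ± 0.36) and Col3a1 were called higher and Thy1 lower (-0.62 ± 0.17), with a median of -0.05. The part of these cells in the results on Lum and Omd was not tested.

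The order of the 6 groups differed between members. From the lowest group mean, Lum ran over KO cycling (5.14), Wt cycling (6.75), KO S (10.15), Wt S (11.37) and KO G1 (11.59) to Wt G1 (11.82). The last 3 overlapped as neighbours, and the others lay apart from the next. Omd ran in nearly the same order, except that KO S cells (5.41) lay below Wt cycling cells (5.78). Prelp was lowest in cycling KO (10.60) and Wt cells (10.34), which overlapped, followed by KO (11.75) and Wt cells (12.00) in G1, which also overlapped, and by KO (12.78) and Wt cells (13.16) in S, which did not. In Aspn, Bgn and both probes of Fmod every group overlapped the next in order.

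Across the 16 arrays, the genes whose level was most like that of a member (Pearson correlation of log2 values over 8427 other genes, brightest probe of each) were Itm2a (0.988) and Mfap4 (0.975) for Lum and Cish (0.974) and Ptgis (0.954) for Dcn. Omd was most like Mest (0.905) and Gpc3 (0.896), Ogn like Nfkbiz (0.95) and Smarca1 (0.936), and Prelp like Sdc4 (0.95) and Pdgfb (0.941). Fmod was most like Ezr (0.891) and Klf2 (0.889), Aspn like Schip1 (0.911) and Clmp (0.895), and Bgn like Zbtb21 (0.868) and Sesn1 (0.8). The arrays share slides, pairs and phases, so these correlations describe 16 arrays and have no p.

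Of the other family genes, 8 were on the array and Podn, a further collagen-binding member, was the 1 that passed the filter on dim probes. Podn was detected on 5 of 6 arrays in G1 and on 0 of 6 in cycling cells, at least 1.55-fold higher in G1 (log2 difference 1.61 ± 0.27, adjusted p = 0.00113). It passed the filter only through Wt cells in G1 and through S cells, so this call is not independent of that filter. Podn was not called between KO and Wt cells (-0.30 ± 0.24, adjusted p = 0.73). Epyc, Kera, Optc, Chad, Podnl1, Nyx and Ecm2 were detected by each of their probes on at most 2 of 16 arrays. Kera, a neighbour of Lum, was detected on 0 of 3 KO arrays (5.13 to 5.38) and 1 of 3 Wt arrays (4.57 to 7.33) in G1, and on no cycling or S array.

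Other matrix genes were read from lists of related proteoglycans, collagens, and growth factors and receptors. Of 16 other proteoglycan genes tested, 8 were called higher in G1 than in cycling cells and 0 lower (median over 19 probes 0.42). Among them were Esm1 (2.46 ± 0.16, detected on 3 of 6 cycling arrays), the glypican Gpc3 (1.91 ± 0.34), the testican Spock3 (1.51 ± 0.22) and agrin, Agrn (0.49 ± 0.10). Esm1 passed the filter on dim probes only through G1 and S cells. Of 10 collagen genes, 6 were called higher and 0 lower (median over 14 probes 0.76), among them Col6a2 (1.37 ± 0.12), Col3a1 (1.60 ± 0.32), Col6a1 (0.74 ± 0.13) and Col5a2 (0.79 ± 0.22). Of 13 growth factor and receptor genes, 3 were called higher and 0 lower (median over 23 probes 0.57): Egfr, Cd44 and Tgfb1 (0.63 ± 0.12). The 4 Egfr probes ranged between 0.37 and 1.14, with 2 of them called. Of the 5 Cd44 probes, 4 were called at 0.79 to 1.28, whereas ILMN_2697830 lay at -0.21 ± 0.26 and was detected on 0 of 6 arrays in G1 and 4 of 6 in cycling cells.

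The 20 tested genes that build the sulfated sugar chains did not move one way. Between G1 and cycling cells 4 were called higher and 2 lower (median over 23 probes -0.02). The sulfotransferases Chst11 (2.03 ± 0.28) and Chst1 (1.44 ± 0.15) were higher and Chst12 (-1.63 ± 0.20) lower. Of the other calls, 1 probe called higher (0.45 ± 0.13) was detected on no G1 or cycling array. Ust, called lower (-0.82 ± 0.23), was detected on no G1 array. In S against G1 Chst12 was higher (1.01 ± 0.22) and Chst11 lower (-1.51 ± 0.32). Of 14 tested genes that process or break down the matrix, 4 were called higher and 2 lower in G1 (median over 20 probes 0.01), with the proteinases Mmp3 (3.13 ± 0.16), Mmp13 (2.49) and Mmp2 (0.95) higher and Adamts1 (-1.22, detected on 2 of 6 arrays in G1) lower. In S against G1 5 of these 14 were called lower, among them Adamts4 (-1.28), Mmp13 (-1.26), Mmp14 (-0.65) and Bmp1 (-0.61, called by 1 of its 3 probes).

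Between KO and Wt cells few of these genes were called over the phases. Among the collagens Col6a2, a chain of the type VI collagen that Dcn and Bgn bind, was lower in KO (-0.86 ± 0.11, adjusted p = 6.45e-04), 1 of 10 genes. Among the processing genes, 3 of 14 were called. Mmp3 (-1.86 ± 0.14, adjusted p = 3.56e-05) and Pcolce, an enhancer of procollagen processing (-0.50 ± 0.11, adjusted p = 0.0345), were lower. Bmp1, the procollagen C-proteinase that also trims proteoglycan precursors, was higher by 1 probe (0.43 ± 0.10, adjusted p = 0.0431). Its other probes lay at 0.29 and 0.30 and were not called. None of the 16 other proteoglycan genes, the 20 chain synthesis genes and the 13 growth factor and receptor genes was called. Gpc3 came nearest among the proteoglycans (-1.18 ± 0.30, adjusted p = 0.0636).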

How the data were processed

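Total RNA was labelled as biotinylated cRNA and hybridized to 16 Illumina bead arrays. The authors processed the scans with BeadStudio 3.0, per the submitters' processing notes. Per the file headers, the deposited table holds non-normalized average probe intensities with a detection p-value beside each. The authors' value table, of linear intensities whose median is 118 throughout, was used as an alternative. Its normalization is not given in the sources used here, and its probes rank as in the first table.

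From the deposited intensities, log2 values were computed with neqc in limma 3.58.1 (R 4.3.3, statmod 1.5.0), which fits the background from the detection p-values, adds an offset of 16 and quantile-normalizes. The test covered 12078 of 25697 probes, those that some group detected (p under 0.01) on each of its arrays. The call of a probe that passed only through the groups where it was high is not independent of this filter. limma fitted a mean per group to all 16 arrays, with two-sided eBayes tests and Benjamini-Hochberg adjustment. The fit was tested on simulated data. The probe table gave 1 symbol for 23978 probes and none for 1719. No build is stated for the probes. The number of arrays limits the precision.

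Bounds ("at least") set each undetected array at the lowest level of its detected probes, or at the probe's own value where higher. The KO and Wt pairs share parents per the series' design text. Within-group deviations of same-numbered KO and Wt arrays correlated at 0.189 to 0.388 in cycling and 0.357 to 0.423 in G1 cells. Those of differently numbered arrays correlated at -0.307 to 0.246 in cycling and -0.396 to 0.276 in G1 cells, so the ranges overlapped in cycling cells. In S cells the values were 0.0644 and -0.0644, and with 2 arrays per group they can differ only in sign, so they cannot check the pairing.

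The members and lists were chosen with earlier results of these data known. All member probes were named. Of a list, at most the 4 called genes with the smallest p were named, otherwise at most the 2 with the largest difference. For likeness, the 2 most correlated genes of each member were named. The context lists were other proteoglycans, sugar chain synthesis, collagens, growth factors and receptors, and processing enzymes.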

Additional observations from a re-analysis of the deposited data

Results flagged for a closer look

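Prelp was higher in KO than in Wt cells in all 3 cycling pairs (0.45, 0.06 and 0.25) and lower in both S pairs (-0.50 and -0.26), so that the KO minus Wt difference in S less that in cycling cells was -0.63 on the log2 scale. Aspn went the opposite way, lower in KO in all 3 cycling pairs (-0.12, -0.31 and -0.86) and higher in both S pairs (0.15 and 0.76), with a difference of 0.88. The G1 pairs were mixed for Prelp (0.62, -0.60 and -0.78) and higher in KO for Aspn (0.16, 0.50 and 0.12). Both genes were picked for their signs in the cycling and S pairs, and the share of all probes with such signs was not counted. Neither difference between phases was tested, and the S and cycling arrays lay on different slides.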

How the results depend on the processing

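Counts are of the 12 member probes called. For KO minus Wt over the phases (1 called), median scaling, the replicate block (KO and Wt pairs), slide as a block and leaving out the 2 arrays that stood apart each gave 2, array weights gave 3, an offset of 50, no background correction and the authors' value table gave 0, and leaving out arrays gave 0 to 2. Without all arrays of number 1, 2 or 3 there were 0. Leaving out the 2 arrays that stood apart kept their pair partners, so that count cannot check the paired difference. In cycling cells (0 called) the replicate block gave 2 and array weights 3. In S cells (0 called) fitting these groups alone gave 2 and array weights 3. For the genotype effect in G1 less that in cycling cells (0 called) array weights gave 2. For G1 minus cycling (10 called) slide as a block and slide 1 alone gave 5, and leaving out arrays gave 4 to 10, with 6 without number 1 and 4 without number 2. For S minus G1 (3 called) the block of genotype and replicate number gave 0, but number 2 was not the same line in all phases. Slide 2 alone gave 0, leaving out the 2 arrays gave 5, array weights 10, and leaving out arrays 0 to 4. Array weights called 6591 of all probes in that comparison, against 1375 without them. Lum, both Dcn probes and Aspn were called higher in G1 under all 28 alternatives of that comparison (Lum 4.48 to 6.08), and Omd under 27. The KO minus Wt difference of Lum stayed between -1.17 and -0.69 and that of Omd between -0.79 and -0.28 over 30 alternatives. Median scaling moved the median of all probes to 0.12 for KO minus Wt in cycling, -0.13 in G1 and 0.21 for S minus G1. Neither of these blocks by replicate changed another count of calls by over 1.5 times. Groups fitted alone do not apply to the mean over phases. Lum and Omd in cycling KO cells lay below the lowest detected signal, and Bgn near the brightest, so their differences are limited by signal.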
